A study of Homo sapiens with 18 samples.

Results

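The genes described here handle vitamin A inside the cell: STRA6 and LRAT take up and store retinol, RDH10, RDH11 and DHRS3 interconvert retinol and retinal, CRABP1 and CRABP2 bind retinoic acid, and CYP26A1 and CYP26B1 break it down. The 9 genes were chosen by name and matched by Ensembl identifier, without its version, in the deposited count tables of the human EGFR-mutant lung cancer lines H1650 and PC9, which hold 60603 and 60649 gene rows. All 9 were found in both tables. Each line was sequenced as 3 groups of 3 libraries of poly-A RNA, 18 libraries in all. These were labelled Tr-BrM with the treatment S100A9-inh, Tr-BrM with the control treatment, and BrM with the control treatment. The series describes the cells as brain metastatic derivatives (BrM) of the lines. The sources used here do not give what Tr stands for or how S100A9 was inhibited. Nor do they tie a group's libraries to different cultures or clones, and every p-value therefore reflects variation among these libraries alone, part of which may be technical. The question put by the design is how expression differs between Tr-BrM and BrM cells and how it changes when S100A9 is inhibited in Tr-BrM cells.

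Retinol reaches cells bound to a carrier in blood and can enter through the membrane receptor STRA6, after which LRAT esterifies it for storage. RDH10 oxidises retinol to retinal, DHRS3 catalyses the opposite reduction, and aldehyde dehydrogenases of the ALDH1A family turn retinal into retinoic acid. CRABP2 carries retinoic acid to its nuclear receptors, the RAR and RXR proteins, which switch genes on and off, and the CYP26 enzymes hydroxylate retinoic acid for disposal. Several of these genes, CYP26A1 among them, are themselves known targets of retinoic acid, which makes the pathway a feedback circuit in many epithelia.

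Total counts per library ran from 17403497 to 27112362 in H1650 and from 18174516 to 21748732 in PC9. CPM, the unit of level used throughout, is the deposited count scaled to a common library size with TMM factors. S100A9 was at 96.2 ± 8.50 CPM in Tr-BrM S100A9-inh, 307 ± 25.2 CPM in Tr-BrM control and 207 ± 9.04 CPM in BrM control libraries of H1650, and at 33.3 ± 2.57, 745 ± 11.9 and 122 ± 4.32 CPM in the same groups of PC9 (SD, n = 3 each). EPCAM, CDH1, EGFR and keratins 8, 18 and 19 were high in all 6 groups. The lung lineage genes NKX2-1, NAPSA and SFTPB each averaged below 1 CPM in all 6 groups. The lines thus carried these epithelial transcripts but hardly those of the lung lineage genes named. Other alveolar genes were not among the markers. In bulk RNA, a change in the share of cells that express a gene and a change in RNA per cell cannot be told apart.

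Promoter sequence was matched for 8 of the 9 genes, as 15 windows from RefSeq (build GRCh38.p14) that each span 250 bases before to 50 after an annotated start. RDH10 is not among them. The windows were searched on both strands for the half-site letters read by retinoic acid receptors, with AGGTCA or AGTTCA as one pair of spellings and GGGTCA or GGTTCA as the other, and for direct repeats of these hexamers with spacers of 1, 2 or 5 bases. At least 1 half-site stood in 6 of the 15 windows, against 38.6% of all 35116 windows, a like share. A direct repeat stood in 1 window of these genes, the second CYP26A1 window, with a spacer of 5 bases, an arrangement found in 0.0883% of all windows. Repeats with spacers of 1 and 2 bases, in 0.131% and 0.0399% of all windows, had no match. Shown are the windows of the 3 genes that moved furthest in H1650 and had a match (of several windows, the one with most), with half-sites in capitals: CYP26A1 (chr10:93073643-93073942, forward strand), STRA6 (chr15:74212210-74212509, reverse strand) and CRABP2 (chr1:156705735-156706034, reverse strand), each read along its own gene 5′ to 3′.
CYP26A1: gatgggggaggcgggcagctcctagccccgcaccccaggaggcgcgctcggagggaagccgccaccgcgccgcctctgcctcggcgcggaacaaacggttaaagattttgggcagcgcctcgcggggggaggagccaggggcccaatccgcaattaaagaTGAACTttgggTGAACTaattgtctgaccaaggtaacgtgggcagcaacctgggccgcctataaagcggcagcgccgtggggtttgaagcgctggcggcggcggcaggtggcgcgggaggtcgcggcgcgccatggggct
STRA6: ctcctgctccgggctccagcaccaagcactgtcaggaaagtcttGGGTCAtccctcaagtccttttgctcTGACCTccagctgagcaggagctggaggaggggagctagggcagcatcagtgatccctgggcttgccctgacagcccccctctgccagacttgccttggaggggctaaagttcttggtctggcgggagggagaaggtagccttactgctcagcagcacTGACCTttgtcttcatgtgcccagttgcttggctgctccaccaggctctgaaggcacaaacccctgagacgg
CRABP2: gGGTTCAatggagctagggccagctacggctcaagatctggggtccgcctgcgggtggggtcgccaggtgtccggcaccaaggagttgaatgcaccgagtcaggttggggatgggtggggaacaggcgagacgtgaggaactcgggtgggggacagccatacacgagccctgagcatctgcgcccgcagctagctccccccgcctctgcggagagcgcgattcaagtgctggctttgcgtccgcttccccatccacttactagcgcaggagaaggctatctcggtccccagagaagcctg
The CYP26A1 repeat, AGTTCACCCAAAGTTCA on the strand opposite to the gene, covers positions -90 to -74 from the start, at 93073803 to 93073819 on chromosome 10. STRA6 holds 3 single half-sites and CRABP2 holds 1. Such letters describe the windows and say nothing of whether a receptor was bound in these cells.

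In H1650 Tr-BrM control against BrM control libraries, 8 of the 9 genes changed, 4 up and 4 down. That count has to be read against a background of 63.9% of all tested genes (32.2% higher, 31.7% lower; edgeR quasi-likelihood test, Benjamini-Hochberg adjusted p under 0.05). S100A9 inhibition in H1650 Tr-BrM cells moved 2 of the 9, RDH10 up and CRABP2 down, against a background of 29.2% (15.4% higher, 13.8% lower). In H1650 Tr-BrM S100A9-inh against BrM control, 7 of 9 passed, 4 up and 3 down, against 63.6% (32.5% higher, 31.2% lower). In PC9, CRABP1 had no count in any library and 8 genes were tested. Of these, 5 changed in Tr-BrM control against BrM control (2 up, 3 down; background 59.9%, 29.6% higher and 30.3% lower), 6 in Tr-BrM S100A9-inh against Tr-BrM control (3 up, 3 down; background 52.5%, 26.3% higher and 26.1% lower) and 5 in Tr-BrM S100A9-inh against BrM control (2 up, 3 down; background 46.3%, 22.7% higher and 23.6% lower). With an absolute log2 change of at least 1 required as well, H1650 kept 5 genes in Tr-BrM control against BrM control (background 20.6%), 0 with inhibition (background 2.04%) and 5 in Tr-BrM S100A9-inh against BrM control (background 19.5%). PC9 kept 1 (background 12.7%), 0 (background 7.81%) and 1 (background 7.4%) in the same comparisons, and the edgeR and DESeq2 counts with inhibition were 0 in both lines at that size, also at an unadjusted p under 0.05 in edgeR. With so few genes these shares were not tested against the background, and the description below goes by which genes moved and how. The comparisons within a line share groups and are not independent of each other. The median log2 change over the genes tested was between -0.17 and 0.17 in every comparison, with rises and falls of single genes on either side.

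**Figure D1:**
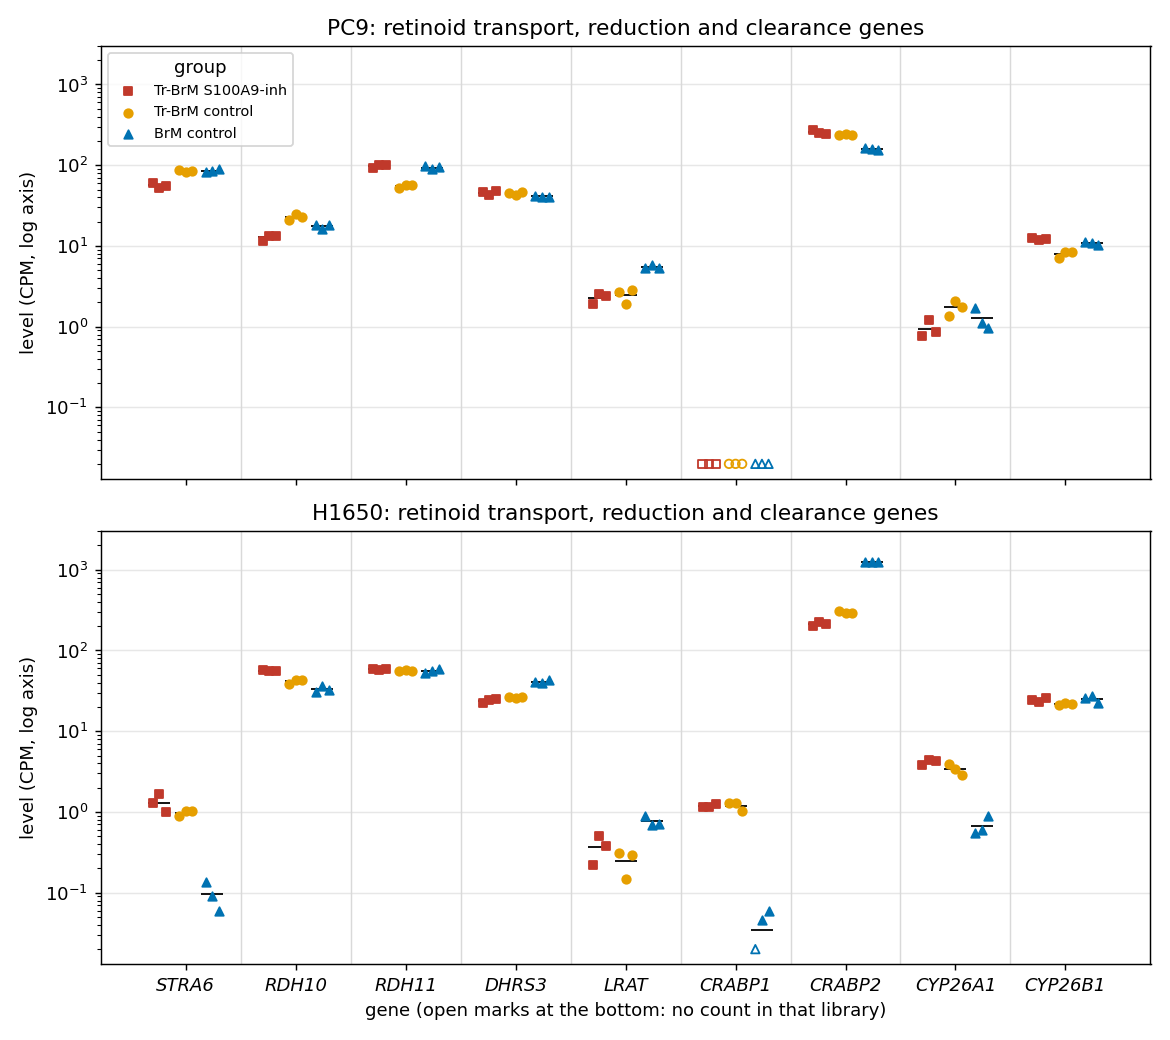
Level of each gene (CPM, log axis) in every library of PC9 (top) and H1650 (bottom), with Tr-BrM S100A9-inh as squares, Tr-BrM control as circles and BrM control as triangles. Short bars are group means of 3 libraries and open marks at the bottom are libraries without a count. STRA6, CRABP1 and CYP26A1 of H1650 sit far higher in both Tr-BrM groups than in BrM control, CRABP2 of H1650 sits lower, and CRABP1 is without a count in all 9 PC9 libraries.

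STRA6 (ENSG00000137868, chromosome 15, 74179466 to 74212267, reverse strand, GRCh38) is the membrane receptor that lets retinol in. PC9, counted in a separate table, had STRA6 at a higher level, 60.2, 52.2 and 56.0 CPM in Tr-BrM S100A9-inh, 88.0, 83.4 and 84.0 CPM in Tr-BrM control and 81.3, 83.8 and 90.5 CPM in BrM control libraries. Both control groups overlapped, and all 3 inhibited libraries lay below them. STRA6 fell by 0.60 on the log2 scale (SE 0.0554) with S100A9 inhibition (edgeR adjusted p = 1.5e-10) and by the same amount against BrM control (SE 0.0552, adjusted p = 1.6e-10), while Tr-BrM control against BrM control gave 0.00 ± 0.0535 (adjusted p = 0.988). CCDC33, on the opposite strand, shares 540 exon bases with STRA6, and strand use in counting is not given. It held 695 counts against 13799 of STRA6 over the PC9 libraries, at 3.25, 5.11 and 3.10 CPM in the 3 groups.

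In H1650 the level of STRA6 was low, with 35, 39 and 26 counts (1.28, 1.65 and 0.997 CPM) in Tr-BrM S100A9-inh, 17, 28 and 21 counts (0.884, 1.02 and 1.02 CPM) in Tr-BrM control and only 3, 2 and 1 counts (0.135, 0.0910 and 0.0591 CPM) in BrM control libraries. Every Tr-BrM library was above every BrM library, and the 2 Tr-BrM groups overlapped. The log2 change was 3.25 ± 0.475 (SE) in Tr-BrM control against BrM control (edgeR adjusted p = 8.05e-07) and 3.66 ± 0.445 in Tr-BrM S100A9-inh against BrM control (adjusted p = 3.47e-08). Since BrM control held 6 counts in all, the ratio of summed CPM carries a wide counting interval: 9.998 in Tr-BrM control (exact 95% interval 4.36 to 28.2) and 13.2 in Tr-BrM S100A9-inh (5.86 to 36.8). Inhibition gave 0.41 ± 0.277 against Tr-BrM control, which did not pass (adjusted p = 0.297).

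LRAT (ENSG00000121207, chromosome 4, 154626945 to 154753118, forward strand), which makes the retinyl esters that cells store, was lower in Tr-BrM cells of both lines. In PC9 it was at 1.89, 2.54 and 2.42 CPM in Tr-BrM S100A9-inh, 2.71, 1.90 and 2.86 CPM in Tr-BrM control and 5.30, 5.78 and 5.34 CPM in BrM control libraries. The Tr-BrM groups overlapped and both lay wholly below BrM control. LRAT fell by 1.14 on the log2 scale (SE 0.176) in PC9 Tr-BrM control (edgeR adjusted p = 1.76e-06) and by 1.26 (SE 0.178) in PC9 Tr-BrM S100A9-inh (adjusted p = 6.72e-07), each against BrM control. In H1650 the counts were low, 6, 12 and 10 in Tr-BrM S100A9-inh, 6, 4 and 6 in Tr-BrM control and 20, 15 and 12 in BrM control libraries, or 0.370 ± 0.143, 0.250 ± 0.0903 and 0.765 ± 0.120 CPM (SD, n = 3 each). Every Tr-BrM library of H1650 was below every BrM library in CPM, and the Tr-BrM groups overlapped. LRAT fell by 1.66 (SE 0.444) in H1650 Tr-BrM control against BrM control (adjusted p = 0.00182). The fall of 1.06 (SE 0.397) in Tr-BrM S100A9-inh against BrM control (adjusted p = 0.0214) did not pass with DESeq2 (adjusted p = 0.126), without BrM control replicate 1 (0.0961) or without Tr-BrM S100A9-inh replicate 1 (0.117). Inhibition itself gave -0.12 ± 0.202 in PC9 (adjusted p = 0.641) and 0.59 ± 0.489 in H1650 (adjusted p = 0.405).

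Transcripts used as markers of other cell types moved alongside these changes in H1650, and which cells they came from was not tested. Stellate cells of the liver are known stores of retinyl esters. In Tr-BrM control against BrM control, 32.2% of all tested genes were higher and 31.7% lower, and the marker counts below stand beside those shares. Of 8 fibroblast and stellate cell genes, 7 were higher and 1 lower in that comparison. Their summed level ran from 182 to 190 CPM in Tr-BrM S100A9-inh, from 160 to 181 CPM in Tr-BrM control and from 24.2 to 24.5 CPM in BrM control libraries. Most of it was COL3A1, at 144, 129 and 13.4 CPM, while ACTA2 and DES stayed below 1 CPM. Of 7 astrocyte genes, 6 were higher and 1 lower, with sums of 211 to 223, 267 to 276 and 35.1 to 43.1 CPM. Most of that was SLC1A3, at 141, 165 and 23.4 CPM. GFAP stood at 31.7, 63.2 and 8.68 CPM and AQP4 at 0.297, 0.982 and 0.145 CPM. The lower gene was ALDH1L1, at 0.721, 0.642 and 2.66 CPM. Of 6 tested leukocyte and microglia genes, 4 were higher and 1 lower, with sums of 107 to 113, 94.7 to 99.9 and 91.7 to 93.7 CPM. CSF1R made up most of that, at 96.0, 77.5 and 85.9 CPM. CD68 had no count in the inhibited libraries, 0.0324 CPM in Tr-BrM control and 0.0998 CPM in BrM control. PTPRC stood at 4.39, 6.25 and 1.33 CPM, TYROBP at 4.58, 6.77 and 1.28 CPM and ITGAM at 2.16, 2.75 and 0.515 CPM. AIF1 was at 0.955, 1.61 and 0.455 CPM and CD14 at 2.17, 2.44 and 3.21 CPM. Endothelial genes were higher in 2 of 5, with sums of 7.44 to 12.4, 6.90 to 8.63 and 2.12 to 5.19 CPM, and of 3 tested neuron genes 1 was lower. Their part in the H1650 changes of the retinoid genes, among which STRA6, CRABP1 and CYP26A1 reached only a few CPM, was not tested. In PC9, 29.6% of all tested genes were higher and 30.3% lower in Tr-BrM control against BrM control. There, 2 of 8 fibroblast genes were tested and both were lower in Tr-BrM control than in BrM control. Of 3 tested genes each, 2 astrocyte genes were higher, 2 leukocyte genes higher and 1 lower, and 3 endothelial genes higher, and their part in the PC9 changes was not tested either. LUM, S100B and TYROBP had no count there in any group, and the PC9 astrocyte sum of 34.2 to 37.7, 97.7 to 103 and 15.5 to 16.6 CPM was almost all SLC1A3.

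RDH10 (ENSG00000121039, chromosome 8, 73294612 to 73325281, forward strand), which oxidises retinol to retinal and so opens the route to retinoic acid, responded to S100A9 inhibition in opposite directions in the lines. In PC9 it was at 11.5, 13.4 and 13.4 CPM in Tr-BrM S100A9-inh, 20.9, 24.7 and 22.9 CPM in Tr-BrM control and 18.1, 16.0 and 18.3 CPM in BrM control libraries, without overlap between any groups. In H1650 it was at 57.4, 55.1 and 55.4 CPM in Tr-BrM S100A9-inh, 38.5, 43.6 and 43.6 CPM in Tr-BrM control and 30.9, 36.2 and 32.4 CPM in BrM control libraries. There too the groups did not overlap, but the inhibited libraries were the highest instead of the lowest. RDH10 fell by 0.84 (log2, SE 0.0903) with inhibition in PC9 (edgeR adjusted p = 3.17e-09) and rose by 0.41 ± 0.0544 in H1650 (adjusted p = 7.77e-07). In Tr-BrM control against BrM control it rose in both, by 0.39 ± 0.0863 in PC9 (adjusted p = 0.000266) and 0.34 ± 0.0596 in H1650 (adjusted p = 1.31e-05). Against BrM control, the inhibited cells were lower in PC9, at -0.45 ± 0.0925 (adjusted p = 0.000149), and higher by 0.75 ± 0.0569 in H1650 (adjusted p = 2.01e-12). The antisense gene RDH10-AS1 shares 278 exon bases with RDH10 but held 13 counts against 3224 in PC9 and 55 against 9170 in H1650.

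RDH11 (ENSG00000072042, chromosome 14, 67676801 to 67695814, reverse strand) is an NADPH-dependent retinal reductase of wide expression. It moved in PC9, where it was at 93.4, 101 and 99.9 CPM in Tr-BrM S100A9-inh, 52.0, 56.8 and 57.3 CPM in Tr-BrM control and 96.4, 89.4 and 94.97 CPM in BrM control libraries. Inhibited Tr-BrM and BrM control libraries overlapped, and the Tr-BrM control libraries stood apart below them. RDH11 fell by 0.76 on the log2 scale (SE 0.0522) in Tr-BrM control against BrM control (edgeR adjusted p = 1.23e-13) and rose by 0.82 ± 0.0521 with inhibition (adjusted p = 2.94e-14). The inhibited cells against BrM control gave 0.07 ± 0.0498 (adjusted p = 0.271). In H1650 the same gene was at 58.5 ± 0.984, 56.8 ± 0.774 and 55.7 ± 2.995 CPM (SD, n = 3 each), with log2 changes of 0.03 ± 0.0456 in Tr-BrM control against BrM control (adjusted p = 0.569) and 0.04 ± 0.0441 with inhibition (adjusted p = 0.52). With library size alone as scaling, the H1650 change against BrM control passed at 0.11 in Tr-BrM control (adjusted p = 0.0309) and 0.12 in Tr-BrM S100A9-inh (adjusted p = 0.0197).

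DHRS3 (ENSG00000162496, chromosome 1, 12567910 to 12617731, reverse strand) reduces retinal back to retinol and is known to limit retinoic acid formation. In PC9 it was nearly level, at 46.2, 42.5 and 47.9 CPM in Tr-BrM S100A9-inh, 45.3, 42.5 and 46.2 CPM in Tr-BrM control and 41.7, 40.7 and 40.5 CPM in BrM control libraries. The Tr-BrM groups overlapped and lay just above BrM control. The PC9 change of 0.15 ± 0.060 in Tr-BrM S100A9-inh against BrM control passed narrowly (log2, SE; edgeR adjusted p = 0.0402) and held in 9 of 16 alternatives, with adjusted p from 0.00717 to 0.172. Tr-BrM control against BrM control gave 0.12 ± 0.0602 (adjusted p = 0.0787) and inhibition gave 0.03 ± 0.0598 (adjusted p = 0.729). In H1650 it was at 22.5, 24.5 and 24.8 CPM in Tr-BrM S100A9-inh, 26.4, 25.5 and 26.9 CPM in Tr-BrM control and 40.4, 39.5 and 42.5 CPM in BrM control libraries, without overlap and with both Tr-BrM groups far below BrM control. DHRS3 fell by 0.64 (SE 0.0573) in Tr-BrM control (edgeR adjusted p = 8.52e-11) and by 0.77 (SE 0.0569) in Tr-BrM S100A9-inh (adjusted p = 1.38e-12), each against BrM control, with -0.13 ± 0.0595 between the Tr-BrM groups (adjusted p = 0.105, and 0.0353 with library size alone as scaling).

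RDH10 and DHRS3 run opposite reactions, so their ratio per library was also computed from CPM per kilobase of exon. This ratio was picked after the levels had been seen and is given as a description, with no test. In PC9 it was 0.142, 0.180 and 0.159 in Tr-BrM S100A9-inh, 0.264, 0.332 and 0.282 in Tr-BrM control and 0.247, 0.224 and 0.257 in BrM control libraries. In H1650 it was 1.45, 1.28 and 1.27 in Tr-BrM S100A9-inh, 0.833, 0.976 and 0.925 in Tr-BrM control and 0.437, 0.523 and 0.434 in BrM control libraries. On this scale the transcript of the oxidising enzyme exceeded that of the reducing enzyme in the inhibited H1650 libraries and in no other group. That crossing rests on the exon lengths used, 5321 bases for RDH10 and 3036 for DHRS3. In CPM alone, RDH10 was also the higher in H1650 Tr-BrM control, at a mean of 41.9 against 26.2. The inhibited group held the lowest ratios of PC9 and the highest of H1650.

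**Figure D2:**
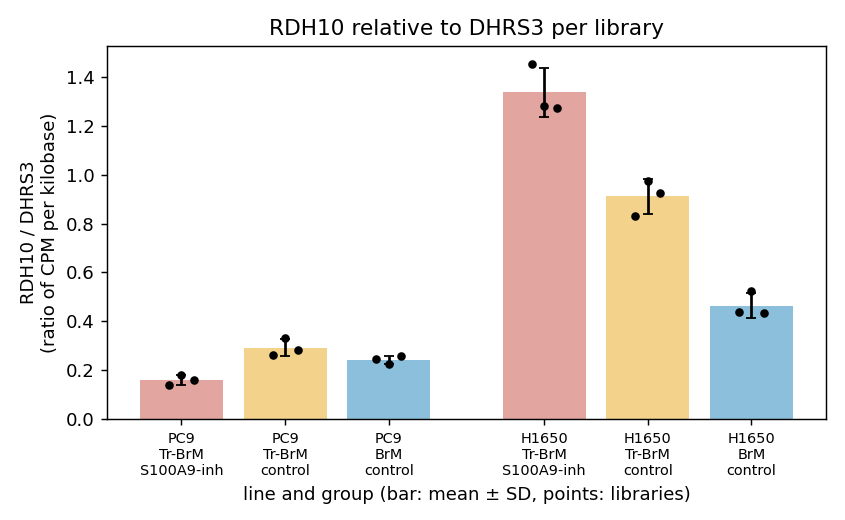
Ratio of RDH10 to DHRS3 (CPM per kilobase of exon) in each group of PC9 (left) and H1650 (right). Bars are means, error bars SD over 3 libraries, and points single libraries. Means in PC9 were 0.160 in Tr-BrM S100A9-inh, 0.293 in Tr-BrM control and 0.243 in BrM control, and in H1650 1.34, 0.911 and 0.464.

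CRABP2 (ENSG00000143320, chromosome 1, 156699606 to 156705816, reverse strand), the binding protein that delivers retinoic acid to its receptors, had the highest level per kilobase of the 9 genes in all 6 groups. In PC9 it was at 270, 253 and 242 CPM in Tr-BrM S100A9-inh, 237, 240 and 238 CPM in Tr-BrM control and 161, 157 and 156 CPM in BrM control libraries. No groups overlapped, but the Tr-BrM groups came within a few CPM of each other. CRABP2 rose by 0.59 ± 0.0409 (log2, SE) in PC9 Tr-BrM control (edgeR adjusted p = 1.27e-13) and by 0.69 ± 0.0408 in Tr-BrM S100A9-inh (adjusted p = 7.22e-15), each against BrM control. The PC9 rise of 0.10 ± 0.0401 with inhibition (adjusted p = 0.0435) held in only 4 of 16 alternatives, with adjusted p from 0.00618 to 0.179. Without Tr-BrM S100A9-inh replicate 1 the change was 0.05 (adjusted p = 0.179). H1650 went the other way, at 201, 228 and 215 CPM in Tr-BrM S100A9-inh, 310, 289 and 295 CPM in Tr-BrM control and 1235, 1229.5 and 1251 CPM in BrM control libraries. The groups did not overlap, and BrM control stood far above the others. CRABP2 fell by 2.06 (log2, SE 0.0367) in Tr-BrM control against BrM control (edgeR adjusted p = 4.14e-27), a 4.16-fold difference, and by a further 0.47 (SE 0.0371) with S100A9 inhibition (adjusted p = 5.14e-11). Inhibited H1650 cells were thus lower than BrM control by 2.53 on this scale (SE 0.0375, adjusted p = 7.14e-29), or 5.77-fold.

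CRABP1 (ENSG00000166426, chromosome 15, 78340324 to 78348230, forward strand), a related binding protein that holds retinoic acid in the cytoplasm, was detected in H1650 alone. It had 31, 27 and 33 counts (1.14, 1.14 and 1.27 CPM) in Tr-BrM S100A9-inh, 25, 35 and 21 counts (1.30, 1.28 and 1.02 CPM) in Tr-BrM control and 0, 1 and 1 counts in BrM control libraries. Both Tr-BrM groups overlapped and stood above BrM control. The ratio of summed CPM to BrM control was 36.1 (exact 95% interval 9.70 to 302) in Tr-BrM S100A9-inh and 36.8 (9.87 to 309) in Tr-BrM control. The edgeR test passed for both (adjusted p = 6.44e-09 and 6.58e-09), and the fitted log2 values of 4.95 ± 0.552 and 4.98 ± 0.556 rest on those 2 counts. Inhibition gave -0.03 ± 0.268 (adjusted p = 0.957). In PC9, 0 counts over 3 libraries allow a level of up to 0.0492 CPM in Tr-BrM S100A9-inh, 0.0506 CPM in Tr-BrM control and 0.0480 CPM in BrM control (3 counts per group). These limits and the intervals cover counting error only. AC011270.2, on the opposite strand, shares 469 of the 993 exon bases of CRABP1 and held 4 counts in H1650 and 0 in PC9. How reads in shared bases were counted is not given.

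CYP26A1 (ENSG00000095596, chromosome 10, 93073475 to 93077890, forward strand), the retinoic acid hydroxylase best known as a target of retinoic acid itself, was higher in H1650 Tr-BrM cells. PC9 held 16, 26 and 16 counts in Tr-BrM S100A9-inh, 26, 43 and 34 in Tr-BrM control and 35, 23 and 21 in BrM control libraries, or 0.944 ± 0.225, 1.73 ± 0.369 and 1.27 ± 0.393 CPM (SD, n = 3 each). The inhibited PC9 libraries were all below those of Tr-BrM control and overlapped BrM control. The fall of 0.86 (log2, SE 0.305) with inhibition passed (edgeR adjusted p = 0.018), but not with DESeq2 (0.0625), without Tr-BrM control replicate 2 (0.098) or without Tr-BrM S100A9-inh replicate 1 (0.0598). Tr-BrM control against BrM control gave 0.45 ± 0.290 (adjusted p = 0.184). H1650 held it at 3.85, 4.39 and 4.33 CPM in Tr-BrM S100A9-inh, 3.95, 3.44 and 2.87 CPM in Tr-BrM control and 0.542, 0.591 and 0.887 CPM in BrM control libraries. Every Tr-BrM library lay above every BrM library, and the Tr-BrM groups overlapped. CYP26A1 rose by 2.37 ± 0.226 (log2, SE) in Tr-BrM control (edgeR adjusted p = 2.98e-10) and by 2.66 ± 0.216 in Tr-BrM S100A9-inh (adjusted p = 9.89e-12), each against BrM control, while inhibition gave 0.29 ± 0.155 (adjusted p = 0.165). AL358613.3, on the same strand, shares 750 of the 2972 exon bases of CYP26A1 and held 0 counts in both lines.

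CYP26B1 (ENSG00000003137, chromosome 2, 72129238 to 72148038, reverse strand), a paralog of CYP26A1, had the higher level per kilobase of the pair in every group and a smaller fitted change in each of the comparisons. In PC9 it was at 12.5, 11.9 and 12.2 CPM in Tr-BrM S100A9-inh, 7.13, 8.51 and 8.49 CPM in Tr-BrM control and 11.1, 10.8 and 10.4 CPM in BrM control libraries, with Tr-BrM control wholly below the others. It fell by 0.42 (log2, SE 0.106) in Tr-BrM control against BrM control (edgeR adjusted p = 0.00107) and rose by 0.60 ± 0.105 with inhibition (adjusted p = 1.44e-05). The inhibited cells against BrM control gave 0.18 ± 0.0996 (adjusted p = 0.138). In H1650 it was at 24.3, 23.3 and 25.9 CPM in Tr-BrM S100A9-inh, 21.3, 22.3 and 21.5 CPM in Tr-BrM control and 25.5, 27.3 and 22.7 CPM in BrM control libraries. Tr-BrM control was lowest, by a small margin, and the others overlapped. The H1650 fall of 0.22 (SE 0.0695) in Tr-BrM control against BrM control (adjusted p = 0.00752) did not pass with library size alone as scaling (0.0946) or without BrM control replicate 2 (0.0837). Inhibition gave 0.17 ± 0.0678 there (adjusted p = 0.0534). In Tr-BrM control cells of both lines CYP26B1 was thus lower than in BrM control, while CYP26A1 was higher in H1650 and at 0.45 in PC9, where its change did not pass.

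**Figure D3:**
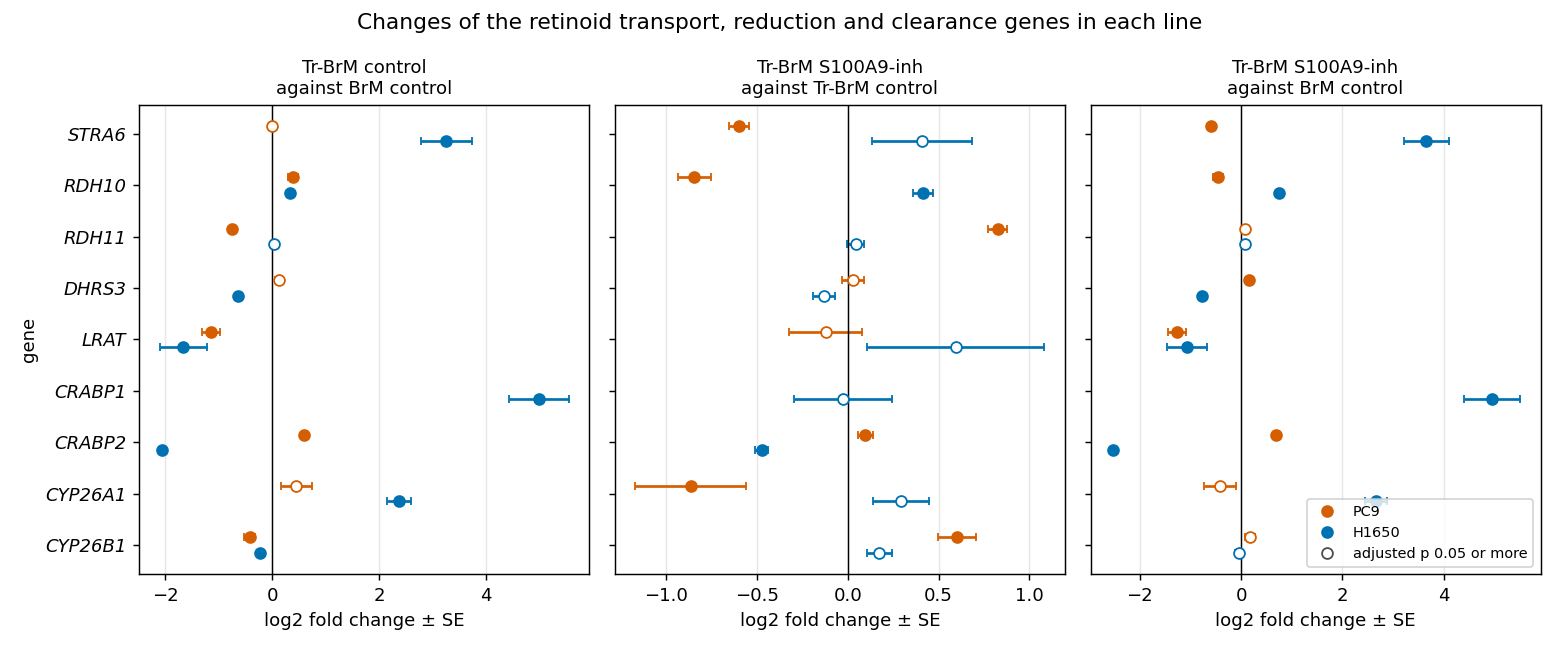
Log2 fold change ± SE of each gene in PC9 (orange) and H1650 (blue) for the 3 comparisons, with open points where the adjusted p was 0.05 or more. CRABP2 lies on opposite sides of 0 in the lines in all 3 panels, and RDH10 in the panels that involve S100A9-inh. CRABP1 has no PC9 point.

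The lines were compared directly with an interaction term, the PC9 change minus the H1650 change, in a fit of all 18 libraries. CRABP1, without counts in PC9, was left out. The term passed for 5 of 8 genes in Tr-BrM control against BrM control (edgeR, background 54.6% of genes), for 6 of 8 in Tr-BrM S100A9-inh against Tr-BrM control (background 40.4%) and for 5 of 8 in Tr-BrM S100A9-inh against BrM control (background 50.2%). For the response to S100A9 inhibition, RDH10 differed by -1.26 ± 0.106 (adjusted p = 5.23e-13), RDH11 by 0.79 ± 0.0694 (adjusted p = 2.02e-12), CRABP2 by 0.57 ± 0.0567 (adjusted p = 3.96e-11) and STRA6 by -0.997 ± 0.236 (adjusted p = 0.000619). CYP26A1 at -1.15 ± 0.322 (adjusted p = 0.00331) and CYP26B1 at 0.43 ± 0.121 (adjusted p = 0.00358) also passed. DHRS3 at 0.16 ± 0.0840 (adjusted p = 0.129) and LRAT at -0.71 ± 0.499 (adjusted p = 0.275) did not. With inhibition, 0 genes of the set passed in the same direction in both lines (edgeR). At an unadjusted p under 0.05 there was 1 such gene, CYP26B1, and with DESeq2 there were 0. Of all tested genes, 15.4% were higher and 13.8% lower with inhibition in H1650, and 26.3% and 26.1% in PC9. How many of all genes passed in the same direction in both lines was not counted. The 0 is therefore not read as a result about these genes.

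For Tr-BrM control against BrM control, RDH10 rose and LRAT and CYP26B1 fell in both lines. The difference between lines was 0.05 ± 0.105 for RDH10 (edgeR adjusted p = 0.745), 0.52 ± 0.447 for LRAT (0.344) and -0.20 ± 0.123 for CYP26B1 (0.167), none of which passed, although unequal changes of about the size of these errors would not have been detected. CRABP2 changed in opposite directions and the lines differed by 2.65 ± 0.0570 on the log2 scale (adjusted p = 3.59e-33). Lines also differed in STRA6 at -3.25 ± 0.452 (adjusted p = 5.82e-08), CYP26A1 at -1.91 ± 0.370 (adjusted p = 2.41e-05), RDH11 at -0.79 ± 0.0704 (adjusted p = 8.33e-13) and DHRS3 at 0.76 ± 0.0828 (adjusted p = 1.95e-10). In inhibited Tr-BrM against BrM control cells, LRAT was lower in both lines and 4 genes, CRABP2, DHRS3, RDH10 and STRA6, changed in opposite directions (edgeR). With DESeq2, 0 genes passed in the same direction, as the H1650 fall of LRAT did not pass (adjusted p = 0.126). The small PC9 change of DHRS3 did not pass with DESeq2 either (adjusted p = 0.104). How many of all genes changed alike or oppositely in the lines was not counted for either comparison.

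Order of levels within a group, on CPM per kilobase of exon, also differed between the lines below CRABP2. In the inhibited H1650 libraries CRABP2 at 195 was followed by RDH11 at 10.6 ± 0.178 and RDH10 at 10.5 ± 0.238, which did not differ beyond their spread, and then by DHRS3 at 7.89 ± 0.410. In H1650 BrM control the order after CRABP2, at 1126, was DHRS3 at 13.4 ± 0.514, RDH11 at 10.1 ± 0.543 and RDH10 at 6.23 ± 0.507. STRA6 was last in H1650 BrM control, at 0.0124 ± 0.00499. In PC9 it stood directly below DHRS3 in all 3 groups, at 7.30 ± 0.521 in Tr-BrM S100A9-inh, 11.1 ± 0.324 in Tr-BrM control and 11.1 ± 0.623 in BrM control. In PC9 Tr-BrM control, RDH11 at 10.04 ± 0.530 stood next below STRA6.

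The rest of the pathway was read from a list of 43 other genes of retinoid transport, metabolism and reception. In H1650, 28 were tested: 12 were higher and 11 lower in Tr-BrM control against BrM control, 3 higher and 8 lower with inhibition, and 11 higher and 10 lower in inhibited Tr-BrM against BrM control. Over all tested genes, passing changes made up 32.2% higher and 31.7% lower, 15.4% higher and 13.8% lower, and 32.5% higher and 31.2% lower in those comparisons. The medians of the log2 changes of the list were 0.08, -0.15 and 0.00. In PC9, 26 were tested, with 11 higher and 6 lower, 8 higher and 9 lower, and 15 higher and 4 lower in the same order of comparisons, and medians of 0.22, -0.01 and 0.27. Over all genes tested in PC9 the shares were 29.6% higher and 30.3% lower, 26.3% higher and 26.1% lower, and 22.7% higher and 23.6% lower. The median over all tested genes was 0.00 in each comparison. The list was not tested against other genes, and members passed in both directions in each comparison.

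By the rule of largest change at 5 CPM or more, LRP2, the endocytic receptor for retinol bound to its carrier, led H1650 in both comparisons against BrM control. It averaged 47.8 CPM in Tr-BrM S100A9-inh, 68.2 CPM in Tr-BrM control and 0.319 CPM in BrM control, a log2 change of 7.75 ± 0.113 in Tr-BrM control against BrM control (edgeR adjusted p = 4.09e-29) and of -0.51 ± 0.0454 with inhibition (adjusted p = 5.68e-10). STRA6 and LRP2, both ways in for retinol, were thus higher in H1650 Tr-BrM than in BrM control. FABP5, which carries retinoic acid to another nuclear receptor and has processed pseudogenes that can share its reads, rose there by 2.10 ± 0.0620 (adjusted p = 5.52e-22), and ALDH1A3 fell by 2.28 (SE 0.0691, adjusted p = 1.08e-21). With inhibition, RBP7, a cellular retinol-binding protein, led H1650 and rose by 0.60 ± 0.0573 (adjusted p = 2.61e-09). RXRA, the receptor partner, fell by 0.43 (SE 0.0325, adjusted p = 2.06e-11).

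In PC9 the same rule led to enzymes. ALDH1A1, which makes retinoic acid from retinal, changed by 5.66 ± 0.0843 in Tr-BrM control against BrM control (edgeR adjusted p = 1.79e-30) and by -3.32 ± 0.0648 with inhibition (adjusted p = 3.81e-27). AKR1B10, a retinal reductase, averaged 838 CPM in Tr-BrM S100A9-inh, 1120.1 CPM in Tr-BrM control and 446 CPM in BrM control, a rise of 1.33 ± 0.0326 in Tr-BrM control against BrM control (adjusted p = 7.2e-25). LPL, a lipase that can free retinol from lipoprotein esters, fell there by 3.02 (SE 0.231, adjusted p = 1.3e-12). With inhibition, ALDH1A3 fell by 1.11 (SE 0.0545, adjusted p = 7.47e-17), and RPE65, the retinoid isomerase of the eye, rose by 1.28 ± 0.147 (adjusted p = 1.19e-08). ALDH1A1 and RDH10, consecutive steps towards retinoic acid, were both higher in PC9 Tr-BrM control than in BrM control and both lower with inhibition. Means of AKR1B10 and of AKR1B1 (1466, 2545 and 1323 CPM, inhibited group first) had the same order as those of ALDH1A1. The reductase RDH11 went the other way and was lowest in Tr-BrM control, as was AKR1C3 (425, 261 and 286 CPM). DHRS4 was highest in the inhibited group and lowest in BrM control (14.6, 12.1 and 8.90 CPM). ALDH1A3 averaged 88.1 CPM in Tr-BrM control and 88.4 CPM in BrM control. Inhibited libraries kept ALDH1A1 above BrM control, at 11.1 against 2.19 CPM, with RDH10 below it.

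**Figure D4:**
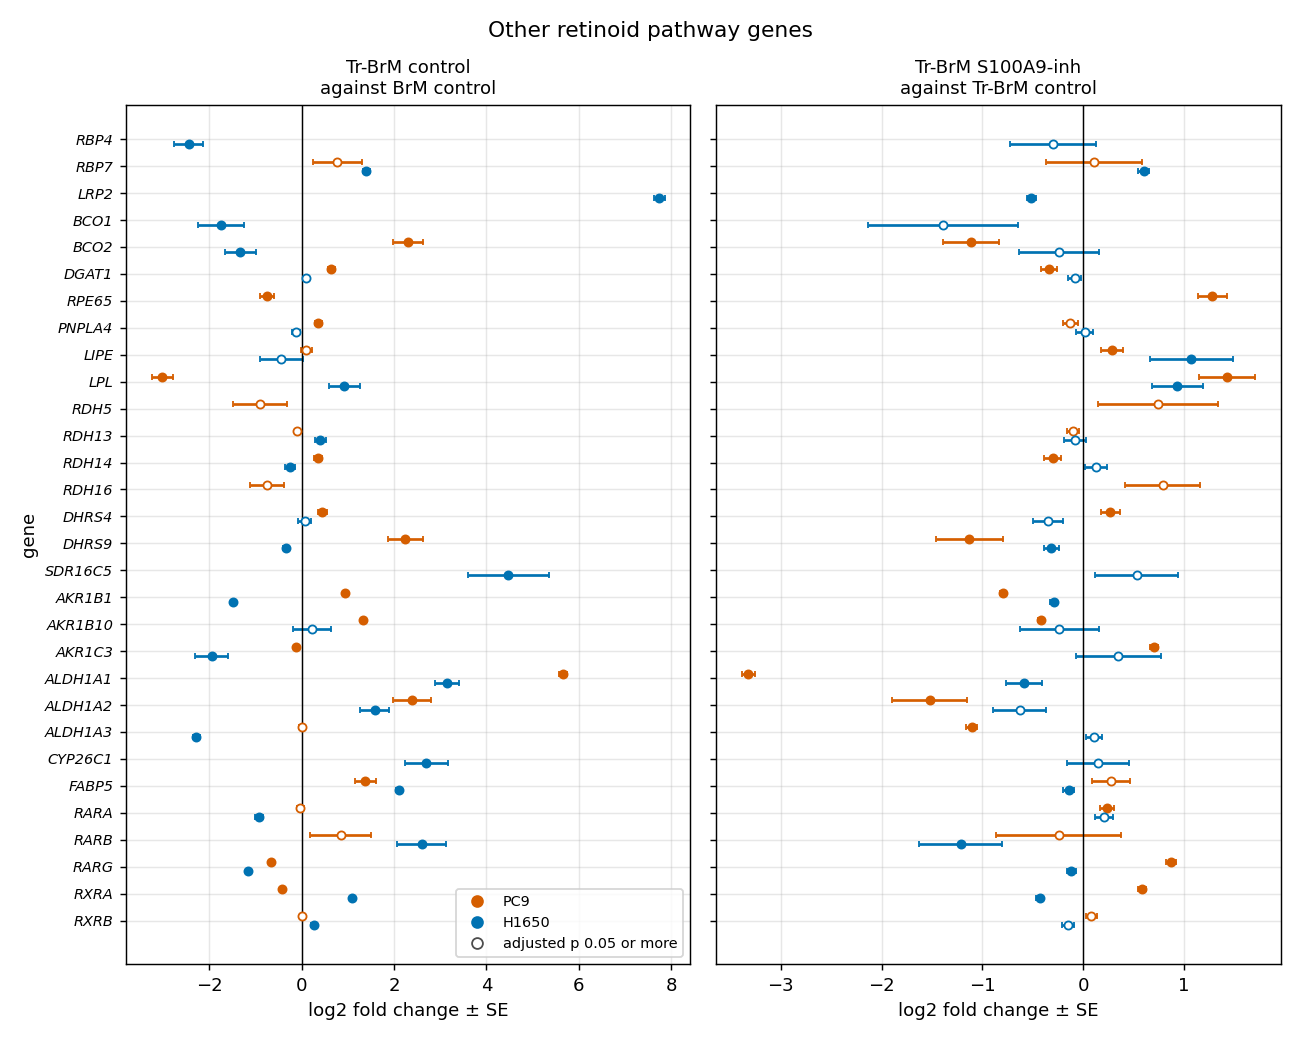
Log2 fold change ± SE of other retinoid pathway genes in PC9 (orange) and H1650 (blue), for Tr-BrM control against BrM control (left) and Tr-BrM S100A9-inh against Tr-BrM control (right). Open points have an adjusted p of 0.05 or more. LRP2 of H1650 (7.75) and ALDH1A1 of PC9 (5.66) stand furthest to the right in the left panel, and ALDH1A1 of PC9 (-3.32) furthest to the left in the right panel.

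A list of 15 textbook retinoic acid responsive genes, which shares members such as RARB with the pathway list, was read in the same way. In H1650, 12 were tested, with 2 higher and 7 lower in Tr-BrM control against BrM control, 0 higher (1 at an unadjusted p under 0.05, edgeR) and 2 lower with inhibition and 3 higher and 7 lower in inhibited Tr-BrM against BrM control. In PC9, 9 were tested, with 4 higher and 3 lower, 3 higher and 3 lower, and 4 higher and 3 lower. The medians of the log2 changes were -0.31, -0.02 and -0.37 in H1650, and 0.54, -0.24 and 0.23 in PC9. Beside the 2 higher and 7 lower of 12 in H1650 Tr-BrM control against BrM control stand 32.2% higher and 31.7% lower of all tested genes, and the other shares of all genes are those given for the pathway list. The responsive genes were not tested against other genes.

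For the 5 genes that reached 5 CPM in both lines, likeness was measured as the root-mean-square difference in log2(CPM + 0.5), centred per line, over 18 libraries and 10040 candidate genes. Nearest to RDH10 were LARP1B (0.103), NEK7 (0.121) and INPP4B (0.126), against a median of 0.387 over all candidates. RDH11 was nearest to RIMS3 (0.0712), SLC25A3 (0.0716) and SEC24D (0.0789), and DHRS3 to CZIB (0.0478), ISOC2 (0.0582) and COQ9 (0.0621), with medians of 0.337 and 0.295. Around CRABP2 stood MST1R (0.130), MEGF6 (0.179) and APOL1 (0.184), with a median of 0.812, and around CYP26B1 stood COL4A5 (0.0813), YARS1 (0.0910) and HSPH1 (0.0922), with a median of 0.279.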

How the data were processed

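Per the labels' protocols, RNA was poly-A selected and prepared as TruSeq-compatible libraries. The deposited values are gene counts, whole numbers that the authors had not normalized, in a separate table for H1650 and PC9. Per the submitters' processing notes, STAR on GRCh38, R 4.0.1 and DESeq2 1.28.1 were used. How genes were counted, with which annotation and strand setting, and the STAR version are not given, so that reads of overlapping antisense genes cannot be told apart.

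Libraries were grouped by their labels, 3 per group, at 17403497 to 27112362 counts in H1650 and 18174516 to 21748732 in PC9. None of the 18 replicate pairs was identical (chi-square per degree of freedom 1.52 to 5.94). Gene positions and exon lengths came from GENCODE 29 on GRCh38, symbols from a gene name table (60582 of 60603 and 60637 of 60649 identifiers matched), and promoters from RefSeq GRCh38.p14.

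All 9 libraries of a line entered 1 quasi-likelihood fit (edgeR 4.0.16, R 4.3.3, TMM scaling and filterByExpr by group), leaving 17937 genes in H1650 and 16169 in PC9, with Benjamini-Hochberg adjustment over all of them at 0.05. SE is the log2 change divided by the square root of F. Interactions used all 18 libraries and 19076 genes. The fits were tested on simulated data. Alternatives were other scalings (upper quartile, library size alone, DESeq2 size factors), filters (none, or 1 CPM in 3 libraries), DESeq2 1.42.0, only the 6 libraries compared, a fold threshold, and leaving out each library. The genes named by rule are the 9 of the set, the 3 nearest genes by likeness of each that reached 5 CPM in both lines, and the 3 pathway genes with the largest passing change at 5 CPM or more per comparison. Marker genes of other cell types, AKR1B1, AKR1C3, DHRS4 and the genes of the closing section were picked after their values were seen. The genes and lists were chosen with earlier results of these data known. The list counts cover every gene of a list, whether or not it is named or plotted.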

Additional observations from a re-analysis of the deposited data

Results flagged for a closer look

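The results below are those whose change differed between the lines by a test of the difference itself, the edgeR interaction (PC9 change minus H1650 change, log2 scale, adjusted p under 0.05). In Tr-BrM control against BrM control the difference was -3.25 for STRA6, -0.79 for RDH11, 0.76 for DHRS3, 2.65 for CRABP2 and -1.91 for CYP26A1. In Tr-BrM S100A9-inh against Tr-BrM control it was -0.997 for STRA6, -1.26 for RDH10, 0.79 for RDH11, 0.57 for CRABP2, -1.15 for CYP26A1 and 0.43 for CYP26B1. In Tr-BrM S100A9-inh against BrM control it was -4.24 for STRA6, -1.21 for RDH10, 0.92 for DHRS3, 3.22 for CRABP2 and -3.07 for CYP26A1. The term passed for 5, 6 and 5 of the 8 genes compared and for 54.6%, 40.4% and 50.2% of all genes in the 3 comparisons. The 3 comparisons share groups, so these 16 values are not independent. STRA6 rests on 6 counts in H1650 BrM control and CYP26A1 on 40, and the lines were counted in separate tables. With inhibition S100A9 fell by 4.49 in PC9 and by 1.67 in H1650, and the part of this inequality was not tested.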

How the results depend on the processing

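No paired analysis was possible because the labels give no replicate numbers that the groups share. Of 1438 values for single genes under the alternatives, 1345 kept their direction and their side of the threshold, 48 lost the call, 11 gained it and 34 changed sign. None of those 34 values passed in either setting, and none was over 0.0590 in size. Requiring an absolute log2 change of at least 1 as well cut the genes called to 5 in H1650 Tr-BrM control against BrM control, 0 with inhibition in H1650, and in PC9 to 1 in Tr-BrM control against BrM control, 1 in Tr-BrM S100A9-inh against BrM control and 0 with inhibition. With DESeq2 at the adjusted p alone, 2 genes were called with inhibition in H1650 and 4 in PC9. Over all genes, DESeq2 called 2092 higher and 1899 lower of 16946 with inhibition in H1650. In PC9 it called 3612 higher and 3721 lower of 19766. The member counts were not tested against these. Leaving out 1 library gave 7 to 8, 2 to 3 and 6 to 7 genes in H1650 (Tr-BrM control against BrM control, inhibition, inhibited Tr-BrM against BrM control), 5 to 6, 4 to 6 and 4 to 5 in PC9, and 16 to 16 interactions. The shares of all genes given above are for the fits with every library. Where leaving out 1 library leaves a group with 2 libraries, the spread is pooled over all groups.

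Sign changes among values near 0 were as follows. STRA6 in PC9 Tr-BrM control against BrM control gave 0.0029 with DESeq2 size factors, 0.0022 with DESeq2, 0.0018 with the 1 CPM filter, 0.0074 with library size alone, 0.00011 with no filter, 0.029 with upper-quartile scaling and -0.033 to 0.047 without single libraries. The RDH11 interaction in inhibited Tr-BrM against BrM control gave 0.0045 with the 1 CPM filter, 0.0017 with no filter, 0.021 with upper-quartile scaling and -0.057 to 0.028 without single libraries. The RDH10 interaction in Tr-BrM control against BrM control gave -0.025 with library size alone and -0.020 to 0.11 without single libraries. CYP26B1 in H1650 inhibited Tr-BrM against BrM control gave 0.0052 with library size alone and -0.11 to 0.017 without single libraries. Without single libraries, CRABP1 with inhibition in H1650 gave -0.13 to 0.027, DHRS3 with inhibition in PC9 gave -0.012 to 0.073, LRAT with inhibition in PC9 gave -0.29 to 0.00039, the LRAT interaction in inhibited Tr-BrM against BrM control gave -0.49 to 0.059, and RDH11 in H1650 Tr-BrM control against BrM control gave -0.0065 to 0.067. The cause was not tested. LRAT of H1650 was left untested by the 1 CPM filter, and DESeq2 gave no adjusted p for it with inhibition. Depth limits STRA6, CRABP1 and LRAT in H1650, with 6, 2 and 47 counts in BrM control.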

Other observations

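RARG and RXRA, nuclear receptors that read retinoic acid, belong to the pathway list and were picked for description after their values had been seen. RARG averaged 56.3 CPM in Tr-BrM S100A9-inh, 61.0 CPM in Tr-BrM control and 137 CPM in BrM control libraries of H1650, and 109, 59.6 and 94.7 CPM in the same groups of PC9. RARG fell in Tr-BrM control against BrM control in both lines, by 1.17 (SE 0.0388, edgeR adjusted p = 1.01e-20) in H1650 and by 0.67 (SE 0.0487, adjusted p = 4.28e-13) in PC9. With inhibition it rose by 0.87 ± 0.0484 in PC9 (adjusted p = 1.3e-15) and fell by 0.12 (SE 0.0411) in H1650 (adjusted p = 0.0318). RXRA, the shared partner of these receptors, rose by 1.08 ± 0.0344 in H1650 Tr-BrM control against BrM control (adjusted p = 3.51e-21) and fell by 0.44 (SE 0.0405) in PC9 (adjusted p = 8.73e-11). With inhibition RXRA fell by 0.43 (SE 0.0325) in H1650 and rose by 0.59 ± 0.0404 in PC9 (adjusted p = 2.06e-11 and 2.3e-13). The differences between lines were not tested for these receptors. TGM2, a transglutaminase that retinoic acid is known to induce, fell in Tr-BrM control against BrM control in both lines, by 1.01 (SE 0.0293, adjusted p = 4.08e-22) in H1650 and by 0.82 (SE 0.0364, adjusted p = 2.41e-18) in PC9. With inhibition TGM2 rose by 0.60 ± 0.0363 in PC9 (adjusted p = 1.15e-14) and gave -0.01 ± 0.0296 in H1650 (adjusted p = 0.903). PLAAT4, a tumour suppressor also known as a retinoic acid responder, stood at 6.61, 8.57 and 22.7 CPM in Tr-BrM S100A9-inh, Tr-BrM control and BrM control of H1650, and at 3.79, 1.96 and 0.928 CPM in PC9. It fell by 1.41 (SE 0.0869) in H1650 Tr-BrM control against BrM control (adjusted p = 2e-14) and rose by 1.08 ± 0.258 in PC9 (adjusted p = 0.0006).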
